A study of Mus musculus with 12 samples.

Results

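The sequences described here are those whose matched entry in the deposited small RNA files was a piRNA, whose read was 24 to 32 nt long and whose first base was T (U in the RNA). Reads listed on the minus strand were first turned back to the strand sequenced. Over the 10 small RNA libraries these were 341497 distinct sequences. The whole series held 2439644 distinct classified sequences.

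PIWI-interacting RNAs (piRNAs) are small RNAs held by PIWI proteins in germ cells, where they silence transposons and, in the adult mouse testis, are made in very large amounts from long precursor transcripts of spermatocytes and round spermatids (pachytene piRNAs). PIWI proteins favour a uridine as the first base. The mouse proteins MILI (Piwil2) and MIWI (Piwil1) hold shorter and longer piRNAs respectively. An adenine at base 10 is the mark of piRNAs made by PIWI slicing opposite a first-base U (the ping-pong cycle), which pachytene piRNAs use little.

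The libraries came from C57BL/6 mice that were wild type (WT) or lacked Gpx5 (Gpx5-/-, here KO), the gene of a secreted glutathione peroxidase of the epididymis. Testis, caput, corpus and cauda epididymidis were sampled at 13 months and caput also at 2 months, 5 pairs of 1 WT and 1 KO library each. Each 13-month library pooled tissue of 7 mice, and the labels do not give the number at 2 months. Caput and cauda had been punctured and rinsed to let spermatozoa out, whereas testis and corpus were taken directly. No group had a replicate, so no difference between genotypes could be tested. The labels name 2 instrument types for the small RNA libraries, not which was used for each, so whether it differed between groups is not known. Every interval below is a 95% interval that covers counting error only.

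In the 13-month libraries 8356569 to 29049669 reads were classified, and 3855476 and 7673814 at 2 months. Of the first 1000 abundance ranks 112 to 383 had no line in a file, so a sequence that is not listed may still have been sequenced. In the caput transcriptome at 13 months, measured in the same genotypes, Gpx5 was at 8474 RPKM in WT and 918 RPKM in KO. Whether its counted reads lie in the deleted part is not known. Markers of tissue identity could be read only in caput, where 16 of 16 genes of a caput secretory list were detected in both genotypes.

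The sequences that the results turn on are shown first, 5′ to 3′, with the first base and base 10 in capitals. The leading sequence of WT testis, a second of its leaders, and a pair that share their 5′ end and differ in length stand for the testis set.

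piR-8514: TatgtgaatTtcaactgttggctccacagg
piR-101130: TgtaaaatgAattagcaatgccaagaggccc
piR-103060, 29 nt: TgaagtgaaCctgagcaattccatgtgga
piR-13982, 27 nt: TgaagtgaaCctgagcaattccatgtg

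A further group led the epididymal libraries and shared 20 nt with sequences that the same files list as ribosomal RNA (rRNA).

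piR-22206, 31 nt: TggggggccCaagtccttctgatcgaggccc
piR-22206, 30 nt: TggggggccCaagtccttctgatcgaggcc
piR-1330: TgggaatacCgggtgctgtaggctt

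Member reads were most of the small RNA of testis and a small part of that of most epididymal libraries. They made up 55.3% of classified reads in WT testis and 53.2% in KO testis. The caput at 13 months held 13.5% in WT and 0.271% in KO. In corpus the shares were 0.313% in WT and 0.684% in KO, and in cauda 0.157% and 0.221%. The caput at 2 months had the lowest shares, 0.0504% in WT and 0.0291% in KO. The WT caput of 13 months thus stood between testis and all 7 other epididymal libraries, and did not lie near the KO caput of the same age.

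The KO over WT ratio of these shares was 0.0201 in caput at 13 months (0.0199 to 0.0203), which is 49.8-fold lower in KO. It was 2.19 in corpus (2.16 to 2.21), 1.41 in cauda (1.39 to 1.43), 0.961 in testis (0.960 to 0.962) and 0.577 in caput at 2 months (0.542 to 0.613). The direction therefore differed among the tissues, with KO lower in caput and higher in corpus and cauda. The testis shares lay close together, and without replicates a difference of that size cannot be told from variation between libraries. At 2 months the shares rested on 1943 member reads in WT and 2230 in KO.

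Members that shared 20 nt with a listed rRNA, tRNA, snoRNA, snRNA or mitochondrial RNA sequence (structural overlap) behaved otherwise. In caput at 13 months their share of classified reads was 0.167% (WT) and 0.143% (KO), and it was 0.0571% and 0.0676% in corpus, 0.0492% and 0.0433% in cauda, 0.0973% and 0.107% in testis, and 0.0234% and 0.0158% in caput at 2 months. The 2 caput values at 13 months differed by a ratio of 0.860 (0.845 to 0.875) where the members as a whole differed by 0.0201. As a part of the member reads they were 52.9% in KO caput, 31.4% and 19.6% in WT and KO cauda, 18.3% and 9.89% in WT and KO corpus, and 46.5% and 54.4% in the young caput. In testis they were 0.176% (WT) and 0.201% (KO), and in WT caput 1.24%. Without them the KO over WT ratio was 0.00957 in caput at 13 months (0.00944 to 0.00969), 104.5-fold lower in KO, 2.41 in corpus (2.38 to 2.44), 1.65 in cauda (1.62 to 1.69) and 0.492 in young caput (0.451 to 0.537).

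**Figure D1:**
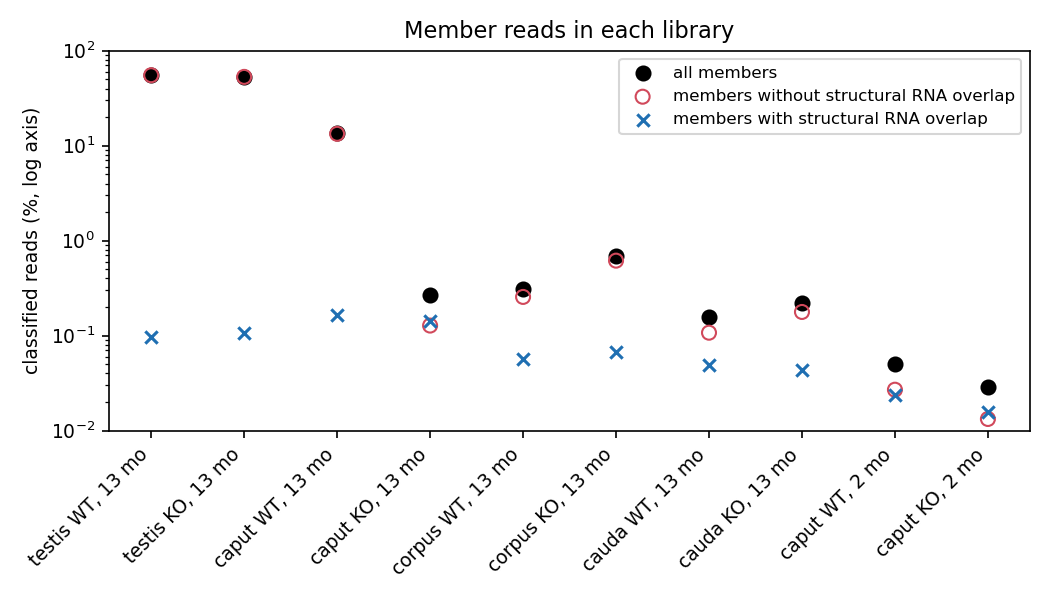
Member reads as a percentage of classified reads in each of the 10 libraries, on a log axis, for all members (filled), members without structural RNA overlap (open) and members with it (crosses). The crosses stay between 0.0158% and 0.167% while all members range from 0.0291% to 55.3%.

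Members piled up at 30 nt. In WT testis 32.2% of member reads were 30 nt, 22.3% were 29 nt and 15.0% were 31 nt. KO testis had 33.6%, 23.1% and 16.6% at these lengths, and WT caput at 13 months 33.5%, 22.9% and 15.3%. The most frequent length was 30 nt in 9 of 10 libraries. The exception was KO caput at 13 months, with 37.3% at 31 nt and 35.4% at 30 nt. By distinct sequences, and also without structural overlap, the peak was 30 nt in all 10 libraries. KO caput without that overlap had 32.1% at 30 nt and 15.4% at 31 nt, close to WT caput without it (33.5% and 14.8%).

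The members of 5 of 10 libraries (KO caput and both cauda libraries at 13 months, and both of young caput) had a second, small peak at 25 nt, the length of the printed piR-1330. A peak here is a length with more reads than both its neighbours, by any margin. The 25 nt peak held 3.11% of member reads in KO caput, against 0.834% at 24 nt and 2.33% at 26 nt, and 4.98% in WT cauda. In KO cauda it held 4.72% against 4.70% at 26 nt, and in WT young caput 2.32% against 2.26%. Margins as small as these last cannot be told from counting error. Without structural overlap 0 of 10 libraries had a second peak below 30 nt, where 24 nt, the edge of the window, could not count as one. KO young caput did have a dip there, with 3.83% at 24 nt, 2.65% at 25 nt and 4.92% at 26 nt of 1017 reads. Reads of 26 to 28 nt were 23.3% of members in WT testis and 20.7% in KO testis, 22.3% in WT caput at 13 months and, without structural overlap, 20.7% to 25.2% in all 10 libraries. The rise from 24 to 30 nt had no dip in either testis library. At the edges of the length window, piRNA-matched reads with first base T numbered 38129 at 23 nt and 71793 at 24 nt in WT testis, and 127506 at 32 nt and 0 at 33 nt.

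Lengths also shifted slightly between the testis libraries. Mean length was 29.1 nt in WT and 29.3 nt in KO (SD over reads 1.72 and 1.58 nt). Among the 2964 sequences of at least 20 RPM (reads in each 1000000 classified reads) in both testis libraries, the median log2 KO over WT ratio was -0.70 at 24 nt, -0.49 at 26 nt, 0.05 at 28 nt, 0.11 at 30 nt and 0.22 at 32 nt. It increased at every step of length from 24 to 32 nt, the first step only from -0.702 to -0.697. The ends rested on few sequences, 15 at 24 nt, 50 at 25 nt and 64 at 32 nt, against 984 at 30 nt. In families that share their first 20 bases, with at least 100 reads in both libraries, the mean length in WT testis was below that in KO testis in 73.7% of 4148 families, by a median of 0.08 nt.

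**Figure D2:**
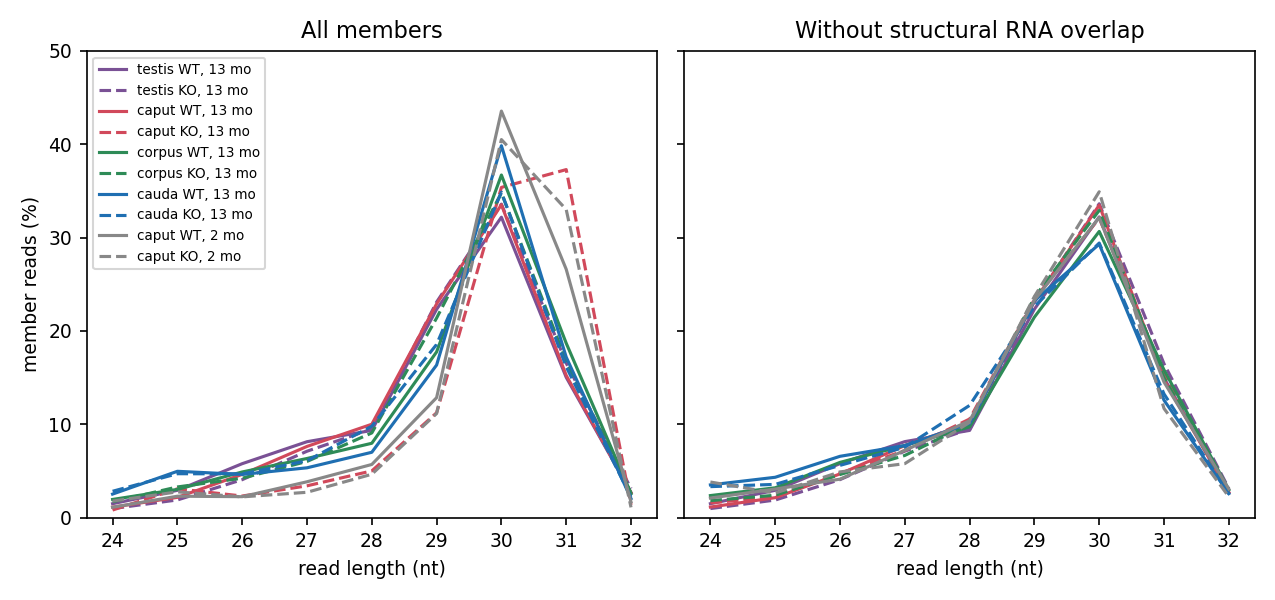
Share of member reads (%) at each length (nt) in the 10 libraries (solid WT, dashed KO, grey 2 months), for all members on the left and without structural RNA overlap on the right. On the left KO caput peaks at 31 nt with 37.3%; on the right all 10 curves peak at 30 nt.

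Base 10 did not stand out in the members. In WT testis 31.2% of member reads had A at base 10, against 28.6% at base 9 and 31.4% at base 11, and base 10 ranked 12 among the 23 positions from 2 to 24. KO testis had 32.3% at base 10 (28.9% and 33.9% at its neighbours), and WT caput 29.1% (27.4% and 31.6%). The positions richest in A were base 2 (55.3% in WT testis) and base 5 (55.1%). Counting each distinct sequence once gave 30.4% in WT testis and 31.0% in KO testis at base 10.

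In the piRNA-matched sequences of the same lengths that start with A, C or G, base 10 did stand out in testis. In WT testis 48.0% of their 535106 reads had A at base 10, against 18.7% at base 9 and 27.2% at base 11, and it was the position richest in A. KO testis had 51.4% there and WT caput 46.5%. By distinct sequences these shares were 34.0%, 34.7% and 35.2%, lower than by reads, and base 10 ranked 4 of 23 positions in each of the 3 libraries. The comparison is descriptive, since the sets differ in their first base by construction.

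In the libraries with a large part of structural overlap the members' base composition followed piR-22206. In KO caput at 13 months A was at base 10 in 13.9% of member reads and at bases 11 and 12 in 66.2% and 64.5%, the positions at which the printed piR-22206 sequences have A. The young caput had 16.6% (WT) and 13.3% (KO) at base 10. Without structural overlap A at base 10 was 29.3% in KO caput, 30.8% and 28.8% in young caput, and between 28.8% and 34.4% over all 10 libraries.

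**Figure D3:**
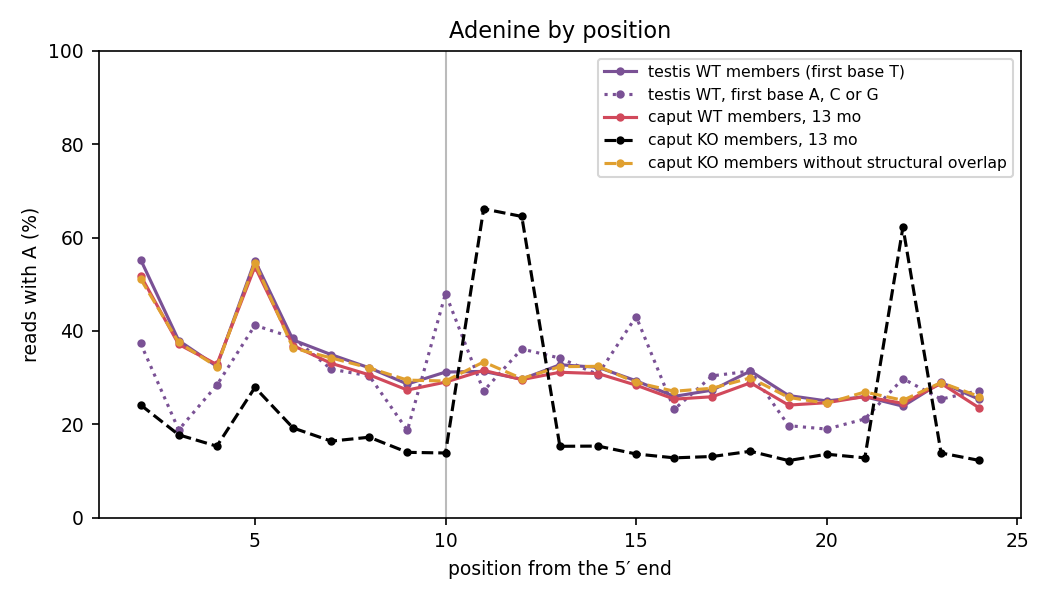
Share of reads (%) with A at positions 2 to 24 from the 5′ end, for members of WT testis, WT caput and KO caput (all and without structural overlap) and for piRNA-matched WT testis reads with another first base. The dotted line reaches 48.0% at position 10, where the members of WT testis are at 31.2%; the KO caput members peak at positions 11 and 12.

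Many members ended in a base that did not match the entry, most often a T. Of WT testis member reads 12.4% had 1 mismatch, and in 73.1% of these it was the last base. These reads, 9.09% of all members in WT testis and 8.81% in KO testis, ended in T in 82.2% and 82.0% of cases, while reads with no mismatch ended in T in 32.6% and 32.9%. The WT caput had 8.52% of such reads, with T in 80.7%. The same sequence less its last base was listed without a mismatch in 98.0% of these reads in WT testis.

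The terminal mismatch was less frequent in members with structural overlap outside testis. In KO caput at 13 months 0.820% of reads with the overlap had it and 7.91% of those without. In WT corpus the shares were 1.31% and 8.97%, and in WT cauda 0.680% and 7.72%. In WT testis, by contrast, they were 6.70% and 9.10%. Without the overlap the share lay between 7.22% and 9.10% in all 10 libraries.

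The 2 most abundant reads of this kind in WT testis are shown with the shorter read beside them, the mismatched last base in capitals. Whether that base was added to the RNA or differs from the entry for another reason was not tested.

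piR-139864, 31 nt: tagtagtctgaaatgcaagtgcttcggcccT
its 30 nt form: tagtagtctgaaatgcaagtgcttcggccc
piR-130664, 32 nt: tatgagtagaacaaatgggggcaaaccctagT
its 31 nt form: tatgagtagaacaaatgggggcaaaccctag

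The 31 nt read had 17075 reads in WT testis, 19622 in KO testis and 5203 in WT caput, and its 30 nt form 5402, 7983 and 1815. The 32 nt read had 9653, 10955 and 2370 reads, and its shorter form 143, 233 and 50. For both, the longer read with the mismatched end was the more abundant form in all 3 libraries. This was not general, since the shorter form was the more abundant for 47.7% of such reads in WT testis, 49.95% in KO testis and 48.2% in WT caput.

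Reads of testis and of WT caput at 13 months were spread over many entries, and those of the other 7 libraries over fewer. In WT testis 37571 entries had member reads. The leading entry held 1.53% of them, the first 10 held 7.36% and the first 100 held 27.3%. KO testis had 1.20%, 7.37% and 28.1%, and WT caput 1.12%, 5.64% and 23.4%. In KO caput the first entry alone held 50.7%, in WT and KO cauda 28.2% and 16.6%, in WT and KO corpus 17.7% and 7.42%, and in young caput 43.0% (WT) and 51.7% (KO).

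That entry was piR-22206 in all 8 epididymal libraries, including WT caput, and it ranked 123 in WT testis and 117 in KO testis. Its level nevertheless differed by at most 1.21-fold within each pair at 13 months. In caput it had 1509.8 RPM in WT and 1375 in KO, and the WT and KO values were 552 and 507 in corpus, 441 and 365 in cauda, and 603 and 636 in testis. In the young caput it was at 217 RPM in WT and 150.4 in KO. Its 31 nt sequence was at 172 RPM in both corpus libraries and at 75.5 and 74.7 RPM in both of young caput. Its rank 1 in 8 libraries therefore came with levels that spanned 150.4 to 1509.8 RPM.

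The order of the 31 nt and 30 nt forms of piR-22206 differed among the libraries. In testis the 31 nt form had 4138 reads in WT and 4782 in KO, and the 30 nt form 903 and 1138. In caput at 13 months the 31 nt form led too, with 11873 (WT) and 14584 (KO) reads against 8129 and 9939. In corpus and cauda the 30 nt form led, with 10304 against 4991 in WT corpus and 4998 against 2106 in WT cauda. KO corpus (2709 against 1436) and KO cauda (2774 against 1320) had the same order. In young caput the 30 nt form led in WT (394 against 291) and the 31 nt form in KO (573 against 497).

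A second entry with rRNA overlap, piR-1330, ranked 2 in KO caput, WT cauda, KO cauda and KO young caput. It was at 58.3 RPM in KO caput and 82.7 in WT caput, where it ranked 256. In testis it was at 13.8 RPM in WT and 60.2 in KO. In corpus it was at 13.3 RPM in WT and 82.6 in KO, where it ranked 3, and in cauda at 32.1 and 41.7 RPM.

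Entry names were not stable labels of a sequence. Of 102685 sequences listed in both testis libraries 76.2% carried the same entry name in both, and over all pairs of libraries the share was 72.0% to 79.4%. The leading WT testis sequence appears as piR-8514 there and under 3 other names in other libraries. As entries, 11 of the 20 leading names were shared by the testis libraries, while as sequences 17 of 20 were. The level of that sequence was 6532 RPM in WT and 4836 in KO testis, 713 in WT and 7.90 in KO caput, 36.1 and 34.0 in corpus, 4.75 and 12.3 in cauda, and 0.259 in WT young caput, and it was not listed in KO young caput. It was high in both testis libraries, next in WT caput, and low in all others.

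Over the 28957 entries listed in both WT testis and WT caput, Spearman's rho of member reads was 0.69, against 0.73 over the 30921 entries shared by the testis libraries and 0.56 over 6389 entries shared by the 2 caput libraries of 13 months. These describe entries of single libraries, which share their reads with neighbours of like sequence. Over sequences listed in both libraries, rho was 0.73, 0.77 and 0.59 in the same order. KO caput had 49782 member reads, and 68.9% of its member sequences had a single read. The value of the caput pair is therefore not comparable in depth with the others.

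Most members were seen in a single library, and the few seen in all were abundant. Of 341497 sequences 210202 (61.6%) were listed in 1 library, with a median of 1 read, and 99 in all 10, with a median of 10190 reads summed over libraries. Sequences listed in all 8 libraries of 13 months numbered 1504 and held 49.9% of member reads in WT testis, 51.0% in KO testis, 44.5% in WT caput and 74.2% in KO caput. The 2 testis libraries shared 102685 sequences, which is 54.4% of those of WT and 52.1% of those of KO testis.

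At 13 months most epididymal member reads came from sequences that both testis libraries listed, which may be with a single read. Sequences listed in both testis libraries gave 91.6% of member reads in WT caput and 95.2% in KO caput at 13 months, 95.1% and 88.6% in WT and KO corpus, 94.0% and 90.0% in WT and KO cauda, and 74.6% and 87.1% in WT and KO young caput. Without structural overlap they were 88.6% to 94.6% at 13 months and 70.8% and 80.5% in WT and KO young caput. Counting only sequences of at least 20 RPM in both testis libraries, the shares fell to 55.6% and 75.4% in WT and KO caput at 13 months, 67.1% and 52.1% in corpus, 65.9% and 57.7% in cauda, and 54.8% and 67.7% in young caput. As distinct sequences the share was 45.6% in WT caput and 74.4% to 84.0% in the other 5 epididymal libraries of 13 months, a measure that moves with depth. In an equal sample of 25282 member reads 10671 distinct sequences would be expected in WT caput, 9699 in WT testis, 9457 in KO testis and 6110 in KO caput. Without structural overlap, in 17000 reads, these were 8101, 7363, 7191 and 7727.

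The WT caput held testis members in a narrow band of their testis level. Of the 2964 sequences of at least 20 RPM in both testis libraries WT caput listed 99.6%, and their median level there was 0.202 of the mean testis level (5th to 95th percentile 0.122 to 0.341). KO caput listed 79.6%, with a median of 0.00176. The medians were 0.00370 in WT and 0.00772 in KO corpus, and 0.00137 in WT and 0.00219 in KO cauda. In young caput 9.04% (WT) and 9.41% (KO) were listed, and the median was 0. The band in WT caput did not overlap the medians of any other epididymal library.

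The ratio in WT caput changed little with length. It was 0.161 at 24 nt, 0.199 at 27 nt, 0.207 at 29 nt and 0.185 at 32 nt. In 5′ families with at least 100 reads in both, the mean length in WT caput was above that in WT testis by a median of 0.07 nt over 2442 families, and the median difference from KO testis was -0.0046 nt over 2390 families.

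**Figure D4:**
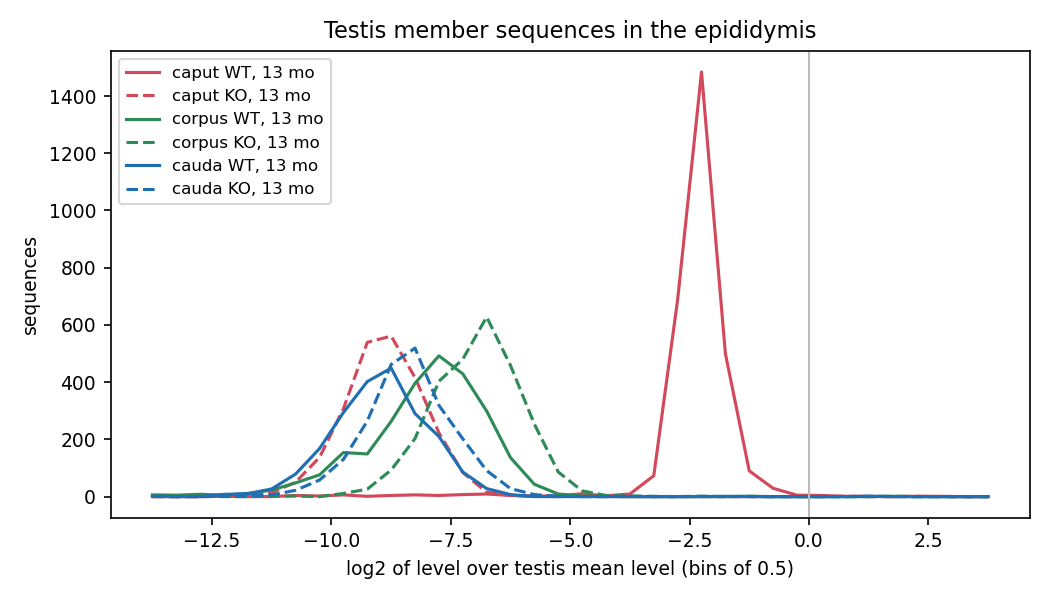
Number of testis member sequences (at least 20 RPM in both testis libraries) by the log2 of their level over the mean testis level, in the 6 epididymal libraries of 13 months (solid WT, dashed KO). Sequences not listed in a library are left out of its curve. WT caput peaks near the log2 of 0.202, and the other 5 libraries lie far to the left.

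The caput transcriptome of the same age showed the same direction for germ cell genes. In a list of 24 piRNA pathway genes, 23 of them in the table, 20 of 23 tested were lower in KO by at least 1 on the log2(RPKM + 1) scale and 0 were higher, with a median difference of -3.03. Over 15000 genes tested 22.1% were lower and 2.77% higher at that threshold, and the median was 0.05. Piwil1, the gene of MIWI, was at 20.9 RPKM in WT and 0.0364 in KO. Piwil2, the gene of MILI, was at 26.5 and 0.292 RPKM. Piwil4, the gene of MIWI2, which acts in fetal germ cells, was at 2.25 and 4.44 RPKM and was not called. The other named genes were Mael at 306 and 1.67 RPKM, Gtsf1 at 174 and 0.994, Ddx4, a germ cell RNA helicase, at 103 and 0.777, and Tdrd6, a Tudor protein of germ granules, at 83.6 and 0.571.

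Markers of testis cells were lower in KO caput, as the member share was. The gene lists, the piRNA pathway list included, were chosen with earlier results of these data known, so their counts are descriptions only. Of all 15000 genes tested 22.1% were lower and 2.77% higher in KO. In a list of spermatid genes 20 of 20 were lower in KO, with a summed level of 12999.8 RPKM in WT and 190.0 in KO. Among them were the protamines Prm1 (2089.7 and 24.4 RPKM) and Prm2 (2745 and 51.7) and the transition proteins Tnp1 (2329 and 24.1) and Tnp2 (1742 and 19.6). In a list of genes of Leydig cells, the steroid-making cells between the seminiferous tubules, 6 of 6 were lower, with a summed level of 362 RPKM in WT and 11.8 in KO. Insl3 was at 219 and 1.47 RPKM, Cyp17a1 at 70.0 and 7.18, Hsd3b6 at 26.8 and 0.1195 and Hsd3b1 at 20.1 and 0.194. In the caput secretory list 11 of 16 were higher and 1, Gpx5, was lower, with Spag11b at 3007 and 7241 RPKM, Defb20 at 2506 and 6589 and Adam7 at 2383 and 6373. What part the cells these lists mark had in the member share was not tested. In such bulk samples fewer cells of a type and less RNA per cell cannot be told apart.

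The same difference was read sequence by sequence, as a description. A sequence was called at a 2-fold ratio whose interval excluded 1, among those of at least 20 RPM in a library of the pair. Of 984 members tested 981 were lower in KO caput at 13 months and 0 higher, against 57.0% lower and 4.89% higher of all 2597 classified sequences tested there. The median log2 KO over WT ratio was -6.89 (5th to 95th percentile -8.63 to -5.80). The 3 not called all had structural overlap. All 984 reached 20 RPM in WT caput and only those 3 did in KO caput, so the other members passed the floor only through WT, where they are high, and their direction was largely set by that choice. The sequences picked by their testis level, above, do not depend on the caput values.

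The 3 sequences with the lowest ratio among those of at least 100 RPM were 2 that testis held at low level and 1 that it held at high level. The highest, besides the 2 printed forms of piR-22206, was piR-107044, at 107 RPM in WT and 2.18 in KO caput (ratio 0.0204, 0.0145 to 0.0279).

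piR-10283 (name in WT caput): TccactattGagtgcatagaccctggaccc
piR-29815 (name in WT caput): TttgaaatcAggactgttctggaaattcc
piR-2251 (name in WT caput): TaaaagatgAggtccatggtgaattactgt

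The first was at 310 RPM in WT and 0.926 in KO caput, with 10.9 RPM in WT and 48.9 in KO testis. It had 0 reads in WT corpus and WT cauda and 96 and 31 reads in KO corpus and KO cauda. The second was at 126 and 0.436 RPM in caput, and at 11.3 and 10.3 in testis, also with 0 reads in WT corpus and WT cauda and 199 and 55 in KO corpus and cauda. The last was at 187 and 0.599 RPM in caput and at 744 and 717 in testis, and it was listed in all 6 epididymal libraries of 13 months.

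The first 2 belong to 57 of the 984 sequences whose level in WT caput was above 5-fold the mean testis level, although 55 of the 57 were listed in WT testis and all 57 in KO testis. By that choice they are high in WT caput (median 28.8 RPM) and low in testis (1.63 in WT and 1.02 in KO). WT corpus listed 14 of them and KO corpus 48, WT cauda 17 and KO cauda 44. The other 927 were listed in WT and KO corpus in 85.1% and 98.3% and in WT and KO cauda in 92.8% and 93.0%.

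In testis most members kept their level and a minority differed strongly. Of 4414 tested, 77.6% lay within 2-fold, 320 (7.25%) were higher and 667 (15.1%) lower in KO, with a median log2 ratio of 0.02. Of all 6407 classified sequences tested there 8.41% were higher and 13.5% lower. The 4414 members are most of those 6407, so these shares were bound to lie near each other. Members were not compared with the other sequences alone. Of the 4414, 2964 reached 20 RPM in both libraries, and the others passed through the library where they are higher. Past 16-fold were 134 members higher and 229 lower, as were 2.95% and 4.79% of all sequences tested. Of these 122 and 219 were in 5′ families whose summed reads were called in the same direction. Those sums include the member itself, so they do not show whether the rest of the family moved. Of all called, 37 were not listed in 1 of the 2 libraries.

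**Figure D5:**
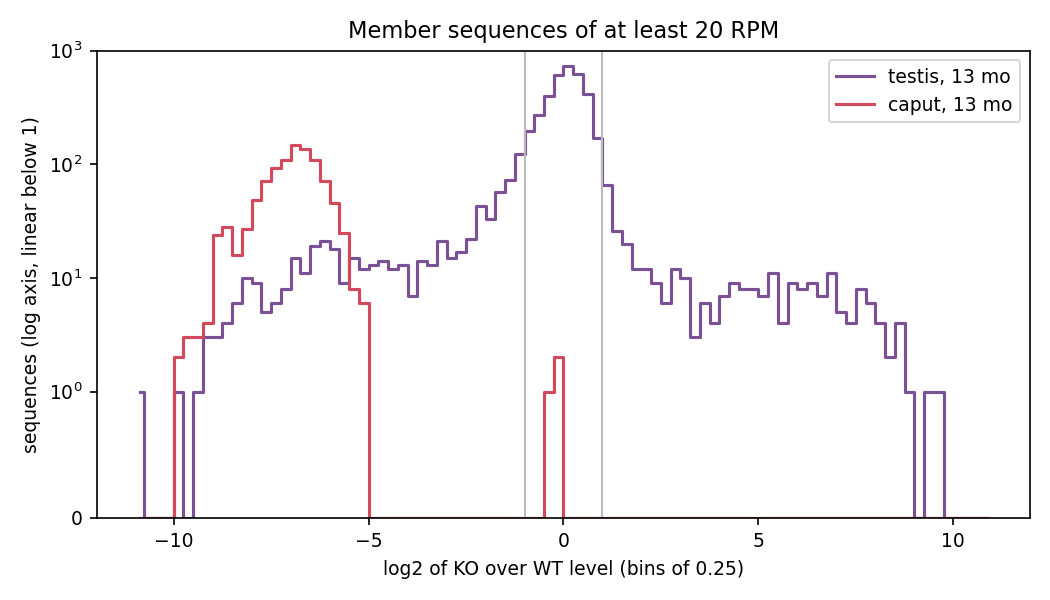
Number of member sequences of at least 20 RPM by the log2 of their KO over WT level, in testis and caput at 13 months, on a log axis that is linear below 1; grey lines mark 2-fold. Testis has 77.6% of its sequences between the lines and tails to both sides, and caput centres on -6.89.

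The 3 most extreme members in each direction in testis, among those of at least 100 RPM, are shown with the second entry of WT testis, under the names they carry in WT testis.

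piR-109687: TacgagatcGtcccttaaagctcaaaggac
piR-105628, lower: TgcactttgAagtcctaggaggtacccacc
piR-105202, lower: TtcgcgtgaTctttgaatgaaccaattct
piR-15344, lower: TgagatcgtAcatcatggttcaggtgcttt
piR-8356, higher: TatgatcgtGacctttcccgccttgaccct
piR-133182, higher: TgatctgtcCgtaagagtttgtttgaacga
piR-116042, higher: TtggatcacCgtgttctcttctagagtc

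The leading sequence of piR-109687 had 18695 reads in WT and 336 in KO testis (ratio 0.0157, 0.0140 to 0.0174), and 8 in WT and 119 in KO caput. The next 3 had 1664, 4365 and 1605 reads in WT testis and 1, 9 and 4 in KO testis. The last 3 had 2, 2 and 6 reads in WT testis and 1753, 1001 and 2523 in KO testis. In WT caput these 6 had 6, 10, 448, 5, 329 and 5 reads. The sequences at 448 and 329 reads, piR-15344 and piR-133182, were thus present in WT caput although they went opposite ways in testis.

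Members of both extremes were at like levels in WT caput. For members past 16-fold, the median WT caput level was 0.202 of the higher testis level for those higher in KO and 0.195 for those lower in KO, against 0.182 over all tested. Members under 1% of the higher testis level in WT caput were 17.9% of those higher, 18.3% of those lower and 3.38% of all tested.

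Few members reached the tested level in the other pairs, and in corpus 9 of 14 reached it in KO only. In corpus 6 of 14 were higher in KO and 0 lower, where 21.1% and 17.8% of all tested sequences were. In cauda 1 of 4 was higher and 0 lower, where 18.8% and 7.75% were. In young caput 0 of 2 were called, where 10.9% were higher and 36.2% lower.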

How the data were processed

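Small RNAs of 18 to 40 nt were measured in 10 libraries and the caput transcriptome at 13 months in 2. The small RNA files hold counts of reads per distinct sequence, deposited by the authors, who matched each sequence to a database entry with up to 2 mismatches, per the file headers. Per the submitters' processing notes, Bowtie 0.12.7 and TopHat2 were used with the mm9 build, and no step is tied to either tool. RPKM values per transcript were deposited by the authors and made with GFOLD 1.1.3, per the file headers.

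Members were found as described above, counts that a spreadsheet had turned into dates at 2 months were read back, and levels were given as RPM. Shares have Clopper-Pearson intervals and ratios exact conditional binomial intervals, both at 95%. A count of 0 was replaced by 3 counts in ratios of single sequences. Reads carry no molecular identifiers. Structural overlap means a shared 20 nt stretch with a sequence listed without a mismatch, with at least 10 reads, as rRNA, tRNA, snoRNA, snRNA or mitochondrial RNA. Families share their first 20 bases. Transcripts were reduced to 22021 genes by the highest mean RPKM, and genes of at least 1 RPKM in a library were compared as log2(RPKM + 1). Calling was tested on simulated Poisson counts made from the WT levels of caput and testis. Such counts hold counting error only, so they say nothing about variation between libraries or animals.

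The text names the leading 10 entries of WT testis and 5 of each other library where a result turns on them, their leading sequences, the 3 most extreme sequences per pair and direction at 100 RPM or more, 4 genes per list by mean RPKM, and the Piwi genes. Members and lists were chosen with earlier results of these data known. Structural overlap, the terminal mismatch, the 16-fold and 5-fold sets and the printed 3′ examples were chosen after the values were seen. Python 3.11.15, numpy, pandas and scipy were used. Genome positions of members were not analysed here.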

Additional observations from a re-analysis of the deposited data

Results flagged for a closer look

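The KO over WT log2 ratio of the member share went opposite ways in different tissues at 13 months, which drew attention because each group is 1 library. It was -5.64 in caput and -0.06 in testis, and 1.13 in corpus and 0.50 in cauda. Corpus lay 6.77 above caput and cauda 6.13 above it, while testis lay -1.19 from corpus and -0.55 from cauda. These differences were not tested, since no group has a replicate, and the small testis value gives no direction on its own. Members with structural overlap had log2 ratios of -0.22 in caput, 0.24 in corpus, -0.19 in cauda and 0.13 in testis. For entry piR-22206 alone they were -0.13, -0.12, -0.27 and 0.08.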

How the results depend on the processing

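No KO over WT ratio of the member share changed direction under the alternatives listed here. No paired analysis was possible because each group has 1 library. The log2 KO over WT ratio of the member share is given in the order caput, corpus, cauda, testis and young caput wherever 5 values stand. With reads of 24 to 32 nt as the base it was -4.42, 0.87, 0.42, -0.0512 and -0.59. With reads other than miRNA as the base it was -4.66, 0.91, 0.65, -0.0536 and -0.65. With at least 10 reads per sequence it was -6.05 in caput, 0.77 in corpus, 0.28 in cauda and -0.56 in young caput. Without the 10 most abundant members it was -6.67, 1.31, 0.71, -0.0595 and -1.07. Without mismatches it was -5.60 in caput and 1.17 in corpus. By distinct sequences at equal depth it was -2.17 in caput, 0.77 in corpus, 0.16 in cauda and -0.0618 in testis. Alternatives added after seeing the data gave, without piR-22206, -6.64 in caput, 1.30 in corpus, 0.71 in cauda and -1.03 in young caput, and without structural overlap -6.71, 1.27, 0.73 and -1.02. The causes of these shifts were not tested.

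The 31 nt peak of KO caput moved to 30 nt by distinct sequences, without the 10 most abundant members and without structural overlap. With testis sequences of at least 5 RPM, where fewer were listed, the median level over testis was 0 in KO caput, WT cauda and KO cauda. The counts that follow keep the rule that a sequence enters through either library of its pair. Members that passed only where they are high had their direction largely set by that choice at these floors too. At 5 RPM or more the members called in KO were 1 higher and 3787 lower of 3794 in caput (4.73% and 67.1% of all sequences tested), 77 higher of 140 in corpus (22.7%), 5 higher and 1 lower of 19 in cauda (23.9% and 7.47%), 1252 higher and 2343 lower of 13609 in testis (10.3% and 15.2%), and 2 lower of 4 in young caput (37.8%). At 100 RPM or more they were 139 lower of 141 in caput (38.3%), 0 higher of 2 in corpus (18.8%) and of 2 in cauda (17.4%), and 54 higher and 123 lower of 966 in testis (7.43% and 11.6%). At 4-fold testis had 196 higher and 381 lower of 4414 (4.68% and 7.85%). Centred on all tested sequences caput had 3 higher of 984. Counted as 5′ families testis had 260 higher and 503 lower of 3765, within 1.5 times the sequence counts. Corpus had 13 families higher against 6 sequences, a change of more than 1.5 times. No share over all classified sequences was computed for the centred or family counts. The counts of piRNA pathway genes did not move by over 1.5 times with other pseudocounts or without a filter.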

Other observations

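A motif count chosen after the values had been seen is given as a description. The letters CG occurred in the first 12 bases of 14.7% of the members tested in testis, of 32.8% of those more than 16-fold higher in KO and of 36.7% of those more than 16-fold lower. The letters GATC occurred there in 3.42%, 14.2% and 7.86%. Reads were searched on the strand sequenced. Sequences of the same 5′ family share these bases and were each counted. The 4414, 134 and 229 sequences came from 2537, 97 and 156 families. The motifs were not counted by family or over all classified sequences.

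The 99 members listed in all 10 libraries included 5 with structural overlap. Apart from those 5, and as a share of member reads without structural overlap, they gave 10.9% to 14.8% in the 8 libraries of 13 months and 16.9% and 22.2% in WT and KO young caput.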
